A study of Homo sapiens with 6 samples.

Results

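Hedgehog signalling was followed through 9 genes of the deposited count table, chosen by gene name: PTCH1, SMO, GPR161, EVC, EVC2, SUFU, GLI1, GLI2 and GLI3. They are 9 of the 58735 genes listed, and all 9 names were found once each. The cells were RPE-1, a human retinal pigment epithelial line, with GFP on Cetn2, a centriole protein, and with PLK4, the kinase that starts centriole duplication, under an rtTA doxycycline-inducible promoter. The siControl group (3 libraries) received scramble siRNA and the siSON group (3 libraries) received siRNA against SON, a protein of nuclear speckles needed for efficient splicing. Both groups were given doxycycline (1 µg/mL) to induce PLK4, so every value below, controls included, comes from cells with induced PLK4. The comparison asks how mRNA abundance changes after knockdown of SON. The labels do not say whether the 3 libraries of a group came from separate cultures, so p-values measure the spread between these libraries, which may be technical.

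In vertebrates this pathway runs through the primary cilium, an antenna that grows from the mother centriole. Without ligand, the receptor PTCH1 keeps SMO out of the cilium, GPR161 holds protein kinase A activity high there, and GLI2 and GLI3 are held by SUFU and cut into repressors. When a hedgehog ligand binds PTCH1, SMO enters the cilium, the EVC and EVC2 complex at its base passes the signal on, and the GLI proteins become activators. GLI1 and PTCH1 are themselves transcribed in response, and are the usual readouts of an active pathway.

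Libraries held 54572365 to 69764836 counts. SON was lower in all siSON libraries, with 22.8% of the control level left. PLK4 was at 78.1% of control, lower in every siSON library than in any siControl library (log2 fold change -0.36, edgeR adjusted p 0.0143). The part of this PLK4 difference in the results below was not tested. Defining markers of pigmented retinal epithelium were mostly missing: TYR and TTR had 0 counts in every library, and RPE65 was at 0.144 CPM in siControl and 0 in siSON. CPM is the count relative to the library's scaled total. BEST1 was counted, at 8.13 CPM in siControl and 12.5 CPM in siSON, and was called higher. PMEL fell from 2.06 to 0.200 CPM and was called lower. MITF and OTX2, transcription factors of the same lineage, were present, and the 9 pigment epithelium markers summed to 51.1 to 52.9 CPM in siControl and 74.0 to 83.3 CPM in siSON, with 3 of 4 tested called higher and 1 lower. The 5 epithelial markers, carried by the keratins KRT8 and KRT18, summed to 764 to 863 and 1330.5 to 1392 CPM. The other epithelial markers, KRT19, CDH1 and EPCAM, had too few counts for a test. Their means were 0.158, 0.105 and 0.110 CPM in siControl and 0.104, 0.0516 and 0.00656 CPM in siSON. Summed markers of blood cells lay at 1.19 to 2.02 CPM in siControl and 0.413 to 0.511 CPM in siSON, with CD3E and HBB at 0. Those of endothelium lay at 1.77 to 1.99 and 0.590 to 1.38 CPM, with 1 of 2 tested called lower. Those of mesenchyme lay at 7796 to 8938 and 7486 to 7541 CPM, most of it VIM, which was not called, while CDH2 was called higher and THY1, COL1A1, COL1A2 and PDGFRB lower (COL1A1 at 27.8% of control). Summed markers of proliferation lay at 1805 to 1999 CPM in siControl and 1256 to 1695 CPM in siSON, where 1 of 7 was called higher and 4 lower. Such calls were common: of all genes tested, 35.2% were called higher and 36.5% lower. The part of these marker differences in the results below was not tested, and in bulk RNA fewer cells of a type and less RNA per cell cannot be told apart. On principal component 2 (5.26% of the variance) both libraries numbered 1 were positive and the other 4 negative.

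Of the 9 genes, 8 had enough counts for a test and EVC2 did not. A gene was called changed when edgeR's adjusted p over all 16591 genes tested was under 0.05. By that rule 6 of the 8 changed, 3 higher and 3 lower in siSON, against a background of 71.7% of all genes tested called (35.2% higher and 36.5% lower). Their share is near the background, so it is not a result about these genes. PTCH1, SMO and EVC rose. SUFU, GPR161 and GLI1 fell. GLI2 and GLI3 did not pass the test. Groups did not overlap for those 6 genes, as for 75.1% of all genes tested, and each gave p = 0.1 in a 2-sided exact permutation test, the smallest that 3 libraries against 3 allow. Scaling by library size alone, which shifted the median log2 fold change of all genes from -0.027 to -0.22, gave 2 of these genes higher and 5 lower, and 4441 of all genes higher and 7351 lower in place of 5834 and 6054. Cyclic loess normalization gave 3 higher and 2 lower of these genes, and 6037 higher and 5629 lower of all genes.

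**Figure D1:**
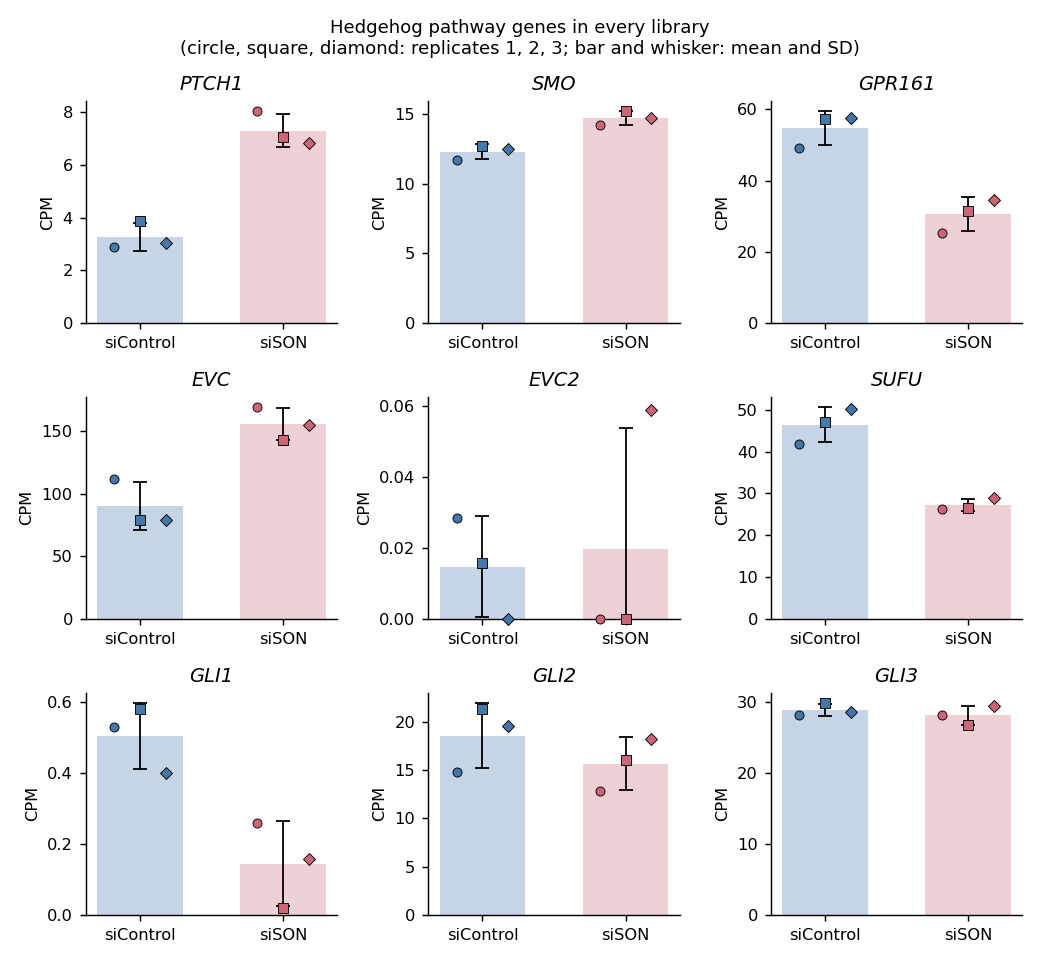
CPM of each gene (vertical axis, from 0) in the 3 siControl and 3 siSON libraries, with bars for the mean and whiskers for the SD. PTCH1, SMO and EVC are higher in every siSON library and GPR161, SUFU and GLI1 are lower, while the groups overlap for GLI2, GLI3 and EVC2.

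**Figure D2:**
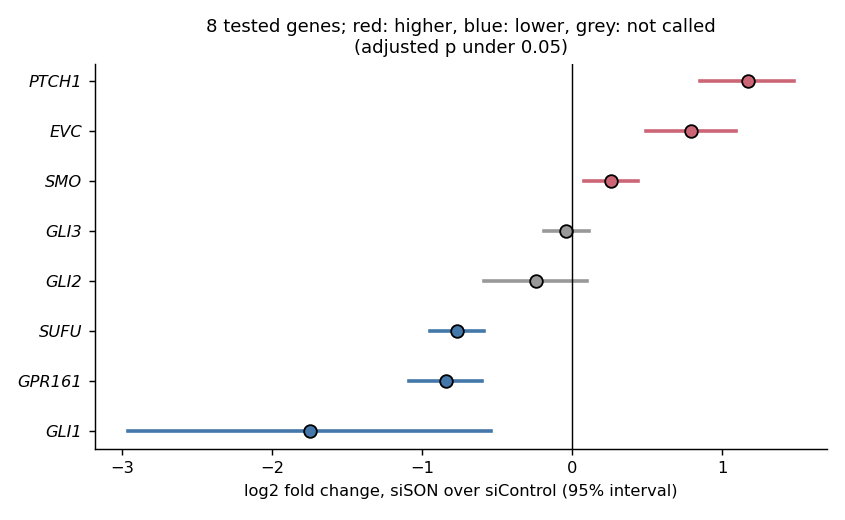
Log2 fold change, siSON over siControl, with its 95% interval for the 8 genes tested, coloured by call. Estimates run from -1.75 for GLI1, with the widest interval, to 1.17 for PTCH1, and the intervals of GLI2 and GLI3 include 0.

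Levels were compared between genes per kilobase of merged exon, since longer genes collect more counts. In siControl the order was EVC (12.6 CPM per kb), SUFU (6.76), GPR161 (4.88), SMO (2.86), GLI3 (2.64), GLI2 (2.53), PTCH1 (0.197), GLI1 (0.120) and EVC2 (0.00268), each a level in CPM per kb. SMO and GLI3, and GLI3 and GLI2, had overlapping ranges, and the other neighbours in that order did not. Both transcriptional readouts, PTCH1 and GLI1, lay below every other gene of the 9 except EVC2, and GLI2 was 12.87-fold above PTCH1. In siSON the order differed at GPR161, which fell below SMO (2.72 against 3.41 CPM per kb, ranges not overlapping). SUFU stayed second at 3.96 CPM per kb, and EVC rose to 21.8 CPM per kb, 5.49-fold above it. Among all genes tested, the siControl level per kb of EVC lay at percentile 80.4, those of SMO, GLI3 and GLI2 at 49.0, 47.7 and 46.9, and those of PTCH1 and GLI1 at 12.3 and 7.8.

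**Figure D3:**
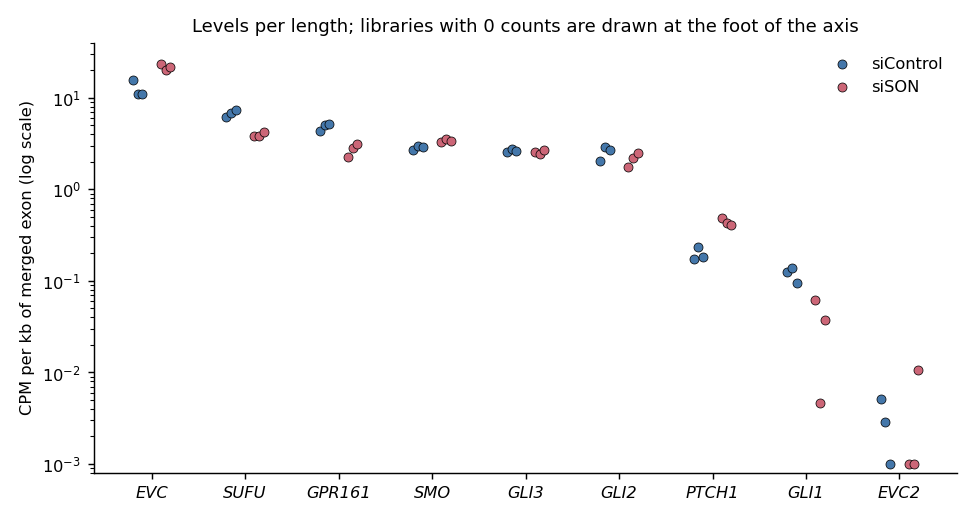
Level of each gene in every library, in CPM per kb of merged exon on a log axis, ordered by the siControl mean. EVC stands highest, a middle group of SUFU, GPR161, SMO, GLI3 and GLI2 follows, and PTCH1, GLI1 and EVC2 lie far below.

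The receptor was examined first. PTCH1 (ENSG00000185920; GRCh38 chromosome 9, 95442980 to 95517057, minus strand, 21 exons in its longest transcript) is both the ligand's receptor and a target of the GLI factors. It is annotated with 27 transcripts in GENCODE 29. RefSeq (GRCh38.p14) gives it 5 promoter windows, each from 250 bases before to 50 after a start. The GLI binding consensus, TGGGTGGTC, was searched on both strands in the 250 bases before each start. It was found in 1 of the 16 windows of these genes, a PTCH1 window, and in 0.199% of all 35116 windows (7 of the 9 genes have a window). That stretch is shown because it carries the letters GLI factors are known to bind upstream of this readout gene. It is chr9:95509267-95509516, minus strand, inside the annotated span of the gene but in no annotated exon, with the match in capitals, 172 to 164 bases before the start.
PTCH1 upstream: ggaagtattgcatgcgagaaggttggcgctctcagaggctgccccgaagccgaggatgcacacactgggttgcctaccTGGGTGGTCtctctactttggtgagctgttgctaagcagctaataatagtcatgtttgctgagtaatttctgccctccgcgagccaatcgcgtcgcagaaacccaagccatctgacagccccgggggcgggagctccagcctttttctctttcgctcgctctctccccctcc

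Here and below, values stand in the order of replicates 1, 2 and 3. For PTCH1 the siControl values were 2.88, 3.87 and 3.04 CPM and the siSON values 8.03, 7.06 and 6.82 CPM. Every siSON library was above every siControl library. The means were 3.26 ± 0.531 and 7.30 ± 0.638 CPM (SD, n = 3 each), a 2.24-fold rise. In edgeR the log2 fold change came to 1.17 (SE 0.14, adjusted p 1.95e-05), the only rise of at least 2-fold among the 9, where 8.72% of all genes were called with such a rise. A match to a motif is a description of the letters, and gene counts do not show which PTCH1 start was used. An antisense gene, AL161729.1, shares 711 exon bases with PTCH1 on the other strand. It had 3 to 26 counts per library against 201 to 466 for PTCH1, and it was lower in siSON.

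SMO (ENSG00000128602; chromosome 7, 129188872 to 129213545, plus strand, 12 exons) is the seven-pass membrane protein that PTCH1 inhibits. It had 11.7, 12.7 and 12.5 CPM in siControl and 14.2, 15.2 and 14.7 CPM in siSON. The groups did not overlap, and the means were 12.3 ± 0.522 and 14.7 ± 0.476 CPM (SD, n = 3 each). On the log2 scale SMO rose by 0.26 (edgeR SE 0.08, adjusted p 0.0151). This small rise was not called with library size alone (0.059, adjusted p 0.545) or without siControl replicate 1 (0.20, adjusted p 0.0792).

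The receptor and the protein it inhibits were also compared within each library, where library scaling has no part. The log2 ratio of PTCH1 to SMO counts was -2.02, -1.72 and -2.04 in siControl and -0.83, -1.10 and -1.11 in siSON. The ratio was higher in every siSON library, by 0.91 on the log2 scale (2-sided exact permutation p = 0.1, adjusted p 0.175 over 7 ratios, which cannot reach 0.05 in this design). PTCH1 counts thus rose relative to SMO counts in these libraries.

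GPR161 (ENSG00000143147; chromosome 1, 168079543 to 168137667, minus strand, 7 exons) is a ciliary receptor that raises cyclic AMP and so restrains the pathway. It had 49.3, 57.2 and 57.7 CPM in siControl and 25.3, 31.6 and 34.7 CPM in siSON. Replicate 1 was the lowest of each group, and no siSON library reached the siControl range. The means were 54.7 ± 4.68 and 30.5 ± 4.82 CPM (SD, n = 3 each), or 55.8% of control in siSON. On the log2 scale GPR161 fell by 0.84 (edgeR SE 0.11, adjusted p 3.89e-05).

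EVC and EVC2 form the complex at the cilium base, and their genes lie head to head on chromosome 4. EVC (ENSG00000072840; 5711197 to 5814305, plus strand, 21 exons) and EVC2 (ENSG00000173040; 5542772 to 5709548, minus strand, 22 exons) start 1648 bases apart in GENCODE 29. Stretches just upstream of their RefSeq starts are shown because these neighbours had the highest and the lowest level of the 9 genes. They lie at chr4:5710951-5711196, plus strand, for EVC and chr4:5708568-5708809, minus strand, for EVC2. Neither overlaps an annotated exon, the EVC2 stretch lies inside that gene's annotated span, and neither holds the GLI consensus, so nothing is in capitals.
EVC upstream: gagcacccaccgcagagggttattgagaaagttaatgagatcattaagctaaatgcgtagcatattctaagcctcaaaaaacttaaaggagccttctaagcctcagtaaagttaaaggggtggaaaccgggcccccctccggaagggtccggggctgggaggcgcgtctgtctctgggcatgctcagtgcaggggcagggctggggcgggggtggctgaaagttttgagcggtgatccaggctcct
EVC2 upstream: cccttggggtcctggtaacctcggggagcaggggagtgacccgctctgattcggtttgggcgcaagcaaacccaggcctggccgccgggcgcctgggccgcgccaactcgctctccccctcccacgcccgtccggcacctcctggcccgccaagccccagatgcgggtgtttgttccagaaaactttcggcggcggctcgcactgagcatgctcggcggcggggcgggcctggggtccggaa

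The EVC2 stretch has 71.1% G and C and 24 CpG pairs in 242 bases, and the EVC stretch 55.3% and 9 CpG pairs in 246 bases. EVC had 112, 78.9 and 79.4 CPM in siControl and 169, 143 and 155 CPM in siSON. Replicate 1 was the highest of each group, and the groups did not overlap. The means were 90.0 ± 18.8 and 156 ± 12.7 CPM (SD, n = 3 each). EVC thereby rose 1.73-fold, or by 0.79 on the log2 scale (SE 0.13, edgeR adjusted p 4.72e-04). CRMP1 shares 159 exon bases with EVC on the other strand and had 3 to 23 counts per library, against 5021 to 9787 for EVC.

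EVC2 had 2, 1 and 0 counts in siControl and 0, 0 and 3 counts in siSON. No library exceeded the 3 counts taken as the smallest level that could be seen (0.0430 to 0.0550 CPM before scaling, counting error only), so no fold change is given. Per kb, EVC was at least 1290-fold to at least 2514-fold above EVC2 at that floor of 3 counts per library. The imbalance between these partners was therefore present in all 6 libraries, controls included, and any change of EVC2 was not detectable at this depth.

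SUFU (ENSG00000107882; chromosome 10, 102503987 to 102633535, plus strand, 12 exons) binds GLI proteins and holds them inactive in the cytoplasm. It had 41.9, 47.1 and 50.2 CPM in siControl and 26.2, 26.6 and 28.8 CPM in siSON. The siSON libraries lay close together and below every siControl library. The means were 46.4 ± 4.19 and 27.2 ± 1.41 CPM (SD, n = 3 each), or 58.6% of control in siSON. Its log2 fold change of -0.77 (SE 0.08) had the smallest adjusted p of the 9 genes (edgeR, 5.38e-06). The genes whose log2 CPM followed that of SUFU most closely over the 6 libraries were TOR1B (Pearson r 0.9991), PLCL2 (0.9991) and RNF19B (0.9989). With 2 groups apart, such values are common: 133 genes had r above 0.99 with SUFU.

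The GLI factors share a zinc finger domain that binds DNA. GLI1 (ENSG00000111087; chromosome 12, 57460135 to 57472262, plus strand, 12 exons) acts only as an activator. It had 37, 37 and 30 counts in siControl and 15, 1 and 8 counts in siSON. All siSON libraries were below all siControl libraries, at levels of 0.401 to 0.582 CPM in siControl and 0.0194 to 0.258 CPM in siSON. Summed over groups these are 104 and 24 counts, or 29.9% of control after scaling (exact 95% interval 18.4% to 47.0%, counting error only). From edgeR the log2 fold change is -1.75 (SE 0.55, adjusted p 0.0136), where 20.5% of all genes were called with a fall of at least 2-fold.

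The GLI1 value rests on few counts, and the gene passed the filter on low counts through its siControl level. It was -1.24 without siSON replicate 2 (adjusted p 0.0315), -2.48 without siSON replicate 1 (adjusted p 0.00371) and not called under cyclic loess normalization (-1.29, limma adjusted p 0.0635). ARHGAP9, chosen after its values were seen, shares 8 exon bases with GLI1 on the other strand. ARHGAP9 fell, with means of 2.65 ± 0.405 and 0.821 ± 0.246 CPM and a log2 fold change of -1.69 (edgeR adjusted p 5.56e-05), and its part in the GLI1 counts was not tested.

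GLI2 (ENSG00000074047; chromosome 2, 120735623 to 120992653, plus strand, 14 exons) is the main activator of the pathway. It had 1032, 1356 and 1467 counts in siControl and 744, 828 and 927 counts in siSON. After scaling, with means of 18.6 ± 3.39 and 15.7 ± 2.73 CPM (SD, n = 3 each), replicate 1 was the lowest of each group and the groups overlapped. The log2 fold change was -0.24 (95% interval -0.59 to 0.10, edgeR adjusted p 0.177). It was called lower without siControl replicate 1 (-0.41, adjusted p 0.0176), with library size alone (-0.44, adjusted p 0.0264) and without both libraries numbered 1, an omission chosen after seeing the data (-0.28, adjusted p 0.00833). With no filter or with a replicate block GLI2 was also called lower, as given in the last section. A lincRNA gene on the other strand, AC017033.1, had 2 to 39 counts and shares no exon bases with GLI2.

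GLI3 (ENSG00000106571; chromosome 7, 41960950 to 42237870, minus strand, 15 exons) mainly gives rise to the repressor form. It had 28.2, 29.9 and 28.7 CPM in siControl and 28.2, 26.8 and 29.5 CPM in siSON, with overlapping groups. The means were 28.9 ± 0.837 and 28.2 ± 1.38 CPM (SD, n = 3 each). The log2 fold change was -0.039, and its 95% interval ran from -0.19 to 0.11 (edgeR adjusted p 0.628). With library size alone it was called lower (-0.24, adjusted p 0.0101).

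Within-library ratios set these factors against each other and against their partners. The log2 ratio of SUFU to GLI3 counts was 0.57, 0.66 and 0.81 in siControl and -0.11, -0.01 and -0.03 in siSON, a difference of -0.73 with no overlap. Against the counts of the factor that it binds, those of SUFU were lower in every siSON library than in any siControl library, while per kb SUFU stayed above GLI3 in both groups. The log2 ratio of GLI1 to PTCH1, both targets of the pathway, was -2.43, -2.72 and -2.90 in siControl and -4.91, -7.92 and -5.35 in siSON. The ratio was lower in every siSON library, with a difference of -3.38 in the mean, which was -2.45 without siSON replicate 2 and -3.96 without siSON replicate 1. The value of -7.92 in siSON replicate 2 rests on 1 GLI1 count.

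GLI1 also lay lower against GLI3, by -2.17 with no overlap, and against GLI2 by -1.97 with 1 siSON value, -5.59, at the siControl minimum. Without siSON replicate 2 these differences were -1.26 and -1.0, and without siSON replicate 1 they were -2.82 and -2.76. The log2 ratio of GLI2 to GLI3 was -0.93, -0.49 and -0.55 in siControl and -1.14, -0.74 and -0.69 in siSON. The groups overlapped, and the difference of -0.20 was within their SDs of 0.24 and 0.25. The ratio was lower in siSON for each replicate number, but same-numbered libraries were not taken as paired. The 2-sided exact permutation p was 0.1 for GLI1/PTCH1, GLI1/GLI3 and SUFU/GLI3, 0.2 for GLI1/GLI2 and 0.4 for GLI2/GLI3. Adjusted over 7 ratios these were 0.175, 0.28 and 0.467, and the ratio of EVC to EVC2 (adjusted p 0.6) is not read because EVC2 was at the floor.

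**Figure D4:**
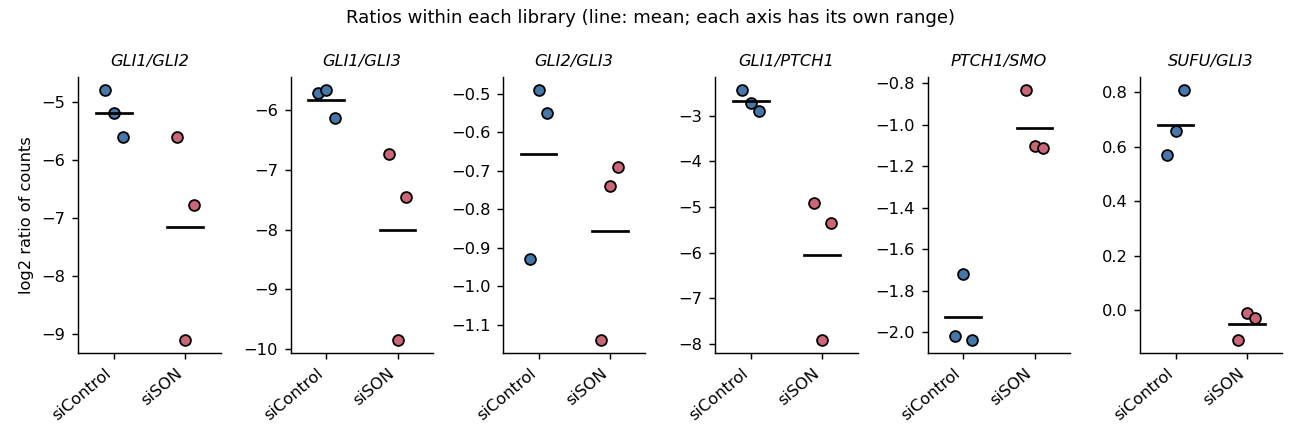
Log2 ratio of counts (plus 0.5) of pairs of genes within each library, with a line at the mean of each group; each panel has its own vertical range. PTCH1/SMO is higher in every siSON library, and GLI1/GLI3, GLI1/PTCH1 and SUFU/GLI3 are lower.

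Other genes of the pathway were taken from 5 lists with 69 genes, of which 60 were tested. In the lists, as above, ± is the SD over 3 libraries. Their counts stand beside the 71.7% of all genes tested that were called, 35.2% higher and 36.5% lower. The median log2 fold change over all genes was -0.027. With library size alone, 4441 of all genes tested were called higher and 7351 lower. Under cyclic loess normalization 6037 were called higher and 5629 lower. HHIP stands in 2 lists.

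Of 9 genes for ligands and their release, 5 were tested, with 1 higher, 1 lower and a median log2 fold change of 0.28. The ligands themselves were barely counted. SHH had 2 counts in siSON replicate 1 and 0 elsewhere, IHH had 2 counts in siControl replicate 3 and 0 elsewhere, and DHH had 6, 4 and 17 counts in siControl and 0, 1 and 1 in siSON. HHAT, the acyltransferase that adds palmitate to hedgehog ligands, fell from 11.5 ± 1.10 to 3.55 ± 0.0682 CPM (n = 3 per group; log2 change -1.70, edgeR adjusted p 1.36e-07). DISP1, which releases the lipid-bearing ligand, rose from 7.77 ± 0.857 to 14.3 ± 1.11 CPM (log2 fold change 0.88, adjusted p 2.10e-05). SCUBE3 had 2.42 ± 0.274 and 3.03 ± 0.340 CPM (adjusted p 0.0905), and was called higher under cyclic loess normalization (0.68, limma adjusted p 0.00279). Under cyclic loess normalization 3 of this list were higher and 1 lower.

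Of 13 co-receptors and receptor modulators, 10 were tested, with 2 higher, 4 lower and a median of -0.66. With library size alone, 2 were higher and 7 lower. GRK2, a kinase that phosphorylates SMO, and ARRB2, a beta-arrestin, fell by 1.30 and 1.74 on the log2 scale (edgeR adjusted p 6.06e-07 and 9.46e-07). HHIP, a decoy that binds the ligand, rose from 17.3 ± 1.86 to 30.7 ± 0.628 CPM (log2 fold change 0.83, adjusted p 5.35e-06). BOC, a ligand co-receptor chosen after its values were seen, rose by 0.49 (adjusted p 2.64e-05) on the log2 scale.

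All 16 genes listed as cilium-based transducers were tested, with 5 higher, 8 lower and a median of -0.20. The list includes SPOP, which acts in GLI degradation, and its relative SPOPL, chosen after its values were seen. Both were called higher. TULP3, which carries GPR161 into the cilium, rose from 39.6 ± 3.38 to 134 ± 6.42 CPM (n = 3 per group; log2 change 1.76, edgeR adjusted p 5.16e-09), while GPR161 itself fell. Motor subunits that work as partners in kinesin-2 moved in opposite directions: KIF3A fell by 1.13 and KIF3B rose by 0.87 on the log2 scale (adjusted p 1.28e-07 and 3.46e-07). The difference between them was not tested. KIF7, the kinesin that organizes GLI proteins at the cilium tip, and STK36, a kinase linked to GLI activity, fell by 1.05 and 1.09 (adjusted p 4.11e-06 and 1.15e-05). SPOP, the adaptor that targets GLI2 and GLI3 for degradation, rose by 0.85 (adjusted p 3.57e-07). These last 3 genes were chosen after their values were seen.

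All 21 genes listed as GLI kinases and ubiquitin ligases were tested, with 17 higher, 3 lower and a median of 0.41. The counts of 17 and 3 became 12 and 4 both with library size alone and under cyclic loess normalization. The list includes regulatory subunits of protein kinase A, which are not kinases themselves. Of these, PRKAR1A, PRKAR1B and PRKAR2A were called higher and PRKAR2B lower, all chosen after their values were seen. BTRC, the F-box protein that recognizes phosphorylated GLI, rose from 31.5 ± 2.41 to 84.5 ± 2.86 CPM (n = 3 per group; log2 change 1.42, edgeR adjusted p 1.64e-08). DYRK2 rose by 1.22 (adjusted p 3.98e-08). PRKACA, a catalytic subunit of protein kinase A, fell from 137 ± 9.22 to 53.3 ± 4.95 CPM (log2 fold change -1.37, adjusted p 4.88e-08). PRKACB, another catalytic subunit chosen after its values were seen, rose from 43.5 ± 4.22 to 61.8 ± 6.08 CPM (log2 fold change 0.51, adjusted p 3.78e-04). ULK3, a kinase of GLI proteins, fell by 1.46 (adjusted p 7.26e-08).

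Of 12 GLI target genes besides GLI1 and PTCH1, 10 were tested, with 5 higher, 2 lower and a median of 0.24. With library size alone, 4 were higher and 3 lower. MYCN had 0 counts in every library. CCND1 (cyclin D1) fell from 659 ± 11.3 to 430.2 ± 1.34 CPM (n = 3 per group; log2 change -0.61, edgeR adjusted p 2.24e-07), and BCL2, a survival factor, fell by 0.87 (adjusted p 4.14e-06). BMP4, a secreted growth factor, rose from 4.84 ± 0.812 to 17.0 ± 1.41 CPM (log2 fold change 1.81, adjusted p 2.60e-07). SNAI1, a transcriptional repressor, rose to 224% of control (adjusted p 1.10e-06), and HHIP rose as given above.

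The remaining targets were less steady. GREM1, a BMP antagonist, rose by 0.40 (edgeR adjusted p 0.00274), but not with library size alone (0.20, adjusted p 0.0539) or under cyclic loess normalization (-0.0094, limma adjusted p 0.926). JAG2, a Notch ligand, had overlapping groups and rose by 0.96 (edgeR adjusted p 0.0191). That call was lost without siSON replicate 1 (0.55, adjusted p 0.0697), without siControl replicate 2 (0.80, adjusted p 0.067) and without siControl replicate 3 (0.83, adjusted p 0.0669). The forkhead genes FOXF1 and FOXL1 did not pass the test, at 0.078 and -0.15 on the log2 scale (adjusted p 0.662 and 0.292). FOXF1 was called higher under cyclic loess normalization (0.44, limma adjusted p 0.0226) and FOXL1 lower with library size alone (-0.34, edgeR adjusted p 0.022). Known targets thus included genes that rose and genes that fell, as did PTCH1 and GLI1.

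**Figure D5:**
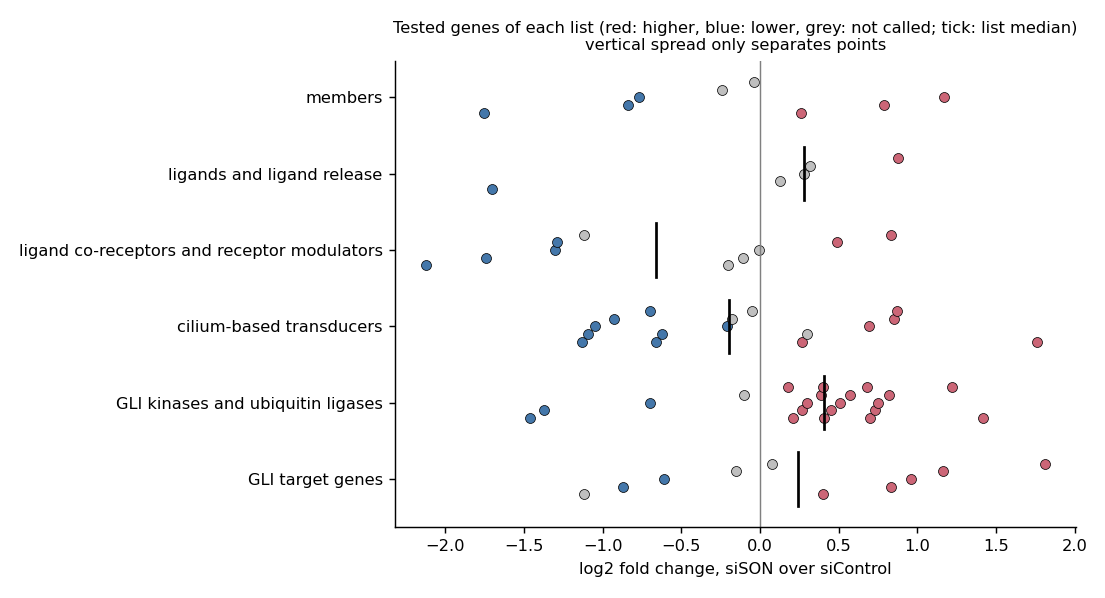
Log2 fold change, siSON over siControl, of each tested gene in the group of 9 and in the 5 pathway lists, coloured by call, with a tick at each list's median. In the list of kinases and ubiquitin ligases, 17 of 21 genes are higher, where 35.2% of all genes tested were called higher. With library size alone or under cyclic loess normalization 12 are. That list includes regulatory subunits of protein kinase A. The GLI targets lie on both sides of 0.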

How the data were processed

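The authors deposited raw whole-number counts per gene, 1 column for each of the 6 libraries. Per the submitters' processing notes, cutadapt 1.16, STAR 2.5.2a, featureCounts 1.6.2, DESeq2 1.28.1 and hg38 were used. The annotation release, strand setting and treatment of multi-mapping reads are not given in the sources used here, so counts where genes overlap are uncertain. All 58735 identifiers matched GENCODE 29, which gave positions and merged exon lengths. Promoter windows came from RefSeq (GRCh38.p14).

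Counts were tested in R 4.3.3 with edgeR 4.0.16 (filterByExpr, minimum count 10, TMM scaling, robust quasi-likelihood F test, group as the sole predictor). Adjusted p means the Benjamini-Hochberg value across 16591 genes. SE is the absolute log2 fold change over the square root of F, and 95% intervals use the fit's degrees of freedom. CPM uses TMM-scaled library totals. The test was checked on simulated data in which few genes changed, evenly in both directions. That check does not cover scaling where most genes are called, as here. Alternatives used limma 3.58.1 and DESeq2 1.42.0. Same-numbered libraries were not taken as paired.

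The 9 genes and the lists were chosen with earlier results of these data known. Genes named are the 9, SON and PLK4, the 3 smallest adjusted p in each list with the largest call in the other direction, GLI targets with at least 1 CPM, and the 3 genes most like the member with the smallest adjusted p. Others are said to be chosen after their values were seen, except overlapping genes, marker genes and genes with few counts. Some genes that this rule or the lists take in are not reported here.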

Additional observations from a re-analysis of the deposited data

How the results depend on the processing

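The alternatives tried were DESeq2, limma-voom, 3 other scalings, 2 other filters, a replicate block and omission of each library; omission of both libraries numbered 1 was added after the data were seen. Over them 10226 to 12604 genes were called against 11888, and 5 to 7 of the 9 hedgehog genes. PTCH1, SUFU, GPR161 and EVC kept their direction and call under all of them. GLI1 was not called under cyclic loess normalization (-1.29) and was not tested with a mean count of at least 50. SMO was not called with library size alone (0.059). GLI2 (main -0.24) was called with library size alone (-0.44), with no filter (-0.24) and without both libraries numbered 1 (-0.28). GLI3 was called with library size alone (-0.24). Leaving out 1 library gave log2 fold changes of -0.41 to -0.10 for GLI2, -0.083 to 0.0086 for GLI3, the sign turning without siSON replicate 2, and 0.20 to 0.29 for SMO. The ligand list had 4 calls in place of 2 under cyclic loess normalization and 4 without both libraries numbered 1. Among the other named genes, FOXF1 turned to -0.12 with library size alone and ranged from -0.00025 to 0.16 with 1 library left out, the lowest without siSON replicate 2, while FOXL1 turned to 0.12 and GREM1 to -0.0094 under cyclic loess normalization. SCUBE3 was also called without both libraries numbered 1 (0.44). A pseudocount of 2 in place of 0.5 changed the direction of none of the 7 ratios.

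Same-numbered libraries had correlations of deviations from group means of 0.194, 0.0461 and 0.118, so not every pair exceeded 0.1 and the number was not used in the main test; libraries with other numbers ranged from -0.138 to 0.0286, and each library correlated best with its own number. With the replicate block 12313 genes were called and GLI2 was called lower (-0.24, edgeR adjusted p 0.0191); no other call among the 9 changed. EVC2 and the ligands were limited by depth, and GLI1 rested on 104 and 24 counts.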
